A study of Zea mays with 12 samples.

Results

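The interaction of 2 lesions, loss of the transcription factor O2 and RNA interference against PBF, was followed through the transcripts of maize endosperm, which stores the starch and protein of the kernel. All 12 libraries of the series enter, and 17058 of the 39448 gene models were tested, those with an FPKM (fragments scaled by transcript length and library total) of 1 or more in at least 3 libraries. The 4 genotypes form a 2 by 2 design of 3 biological replicates each: PbfRNAi;o2, which carries both lesions and is called the double genotype here, the mutant opaque2 (o2), the RNA interference line for Pbf (PbfRNAi), and wild type (WT). Endosperm was taken at 16 days after pollination from plants of all 4 genotypes grown in the field. The sources used here do not give the promoter that drives the interference construct, the number of transformation events, the o2 allele or the genetic background of each line.

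O2 is a bZIP factor and PBF a Dof factor, and in maize both are known as activators of zein genes, which encode the prolamin storage proteins that fill the protein bodies of the starchy endosperm. PBF binds the prolamin box and O2 the O2 box, elements that lie close together in the promoters of 22-kDa alpha-zein genes. When 2 lesions act independently, their log-scale effects add up in the double genotype. A departure means that the effect of one lesion differs with the state of the other, and its shape says how: a gene already at its lowest level cannot fall further, one lesion can hide the other, or the pair can do what neither lesion does alone.

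The departure of a gene is the PbfRNAi effect in the o2 background minus the PbfRNAi effect in the WT background, on log2(FPKM + 1). A negative value therefore means a lower level in the double genotype than the sum of the single effects gives. Genes with a limma adjusted p under 0.05 are referred to as called.

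Between libraries of 1 genotype, replicates 2 and 3 differed by a median absolute log2 value of 0.081 to 0.139, and replicate 1 from either by 0.227 to 0.265. The summed FPKM of 15 heat shock genes was highest in replicate 1 of each genotype: 4970 against 1150 and 1190 in the double genotype, 2360 against 1300 and 1310 in o2, 1670 against 608 and 700 in PbfRNAi, and 1520 against 603 and 625 in WT. The sources used here do not say which libraries shared a harvest or preparation, and p-values treat the 3 as independent. Without the 4 replicate 1 libraries 7621 genes were called, 1586 of the original 1590 among them. All 27 starchy endosperm markers reached FPKM 1 or more in some library, and the 9 green-tissue markers reached at most 1.88. Summed starchy endosperm markers ran from 64100 to 86200 in the double genotype, 86800 to 97800 in o2, 134000 to 155000 in PbfRNAi and 117000 to 160000 in WT. They include zeins, the known targets of both factors, so their sums do not measure tissue make-up apart from the lesions. Some of these zeins are abundant and yet listed at 0 in particular libraries. The zein gz27 is at 0 in all WT libraries and o2 replicate 1, against 22675 and 23594 in o2 replicates 2 and 3. The zein z1C2 is at 27678 in WT replicate 1 and at 0 in WT replicates 2 and 3. The sums, those of WT in particular, are therefore not comparable between genotypes. Of 4 embryo markers the regulator lec1 is listed at 0 throughout, and the embryo oil-body gene ole1 stood at 325 to 359 in the double genotype, 321 to 347 in o2, 306 to 551 in PbfRNAi and 330 to 369 in WT. The embryo globulin gene glb1 differed between genotypes, with 39.8, 147 and 160 in the double genotype, 35.3, 58.7 and 60.7 in o2, 19.3, 66 and 77.7 in PbfRNAi and 5.89, 13.95 and 13.2 in WT. Each lesion raised it in the WT background, o2 by 2.17 ± 0.61 (adjusted p = 0.0135) and PbfRNAi by 2.06 ± 0.61 (adjusted p = 0.033), and its departure of -1.11 ± 0.87 was not called (adjusted p = 0.49) except with the replicate block (0.0468) and without the replicate 1 libraries (0.000464). The 8 basal transfer layer markers, 7 of which reached FPKM 1, summed to 99.2 to 301 in the double genotype, 311 to 573 in o2, 56.7 to 171 in PbfRNAi and 197 to 285 in WT. Summed aleurone markers ran from 107 to 124 in the double genotype, 96.2 to 137 in o2, 87.9 to 99 in PbfRNAi and 86.9 to 92.2 in WT, with c1 and al1 listed at 0. Their part in the results was not tested. In bulk tissue, fewer cells of a type and less RNA per cell cannot be told apart.

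The double genotype departed from additivity at 1590 of the 17058 tested genes, 9.32%. It lay above the sum of the single effects at 654 genes (3.83%) and below it at 936 (5.49%). With the replicate number as a block, 2513 genes were called (14.7%), 991 above (5.81%) and 1522 below (8.92%), and 1583 of the 1590 were among them. FPKM is relative to each library's total, and the median departure of all tested genes was -0.115. The median effect of all tested genes was 0.0519 on the log2 scale for PbfRNAi in the o2 background and 0.163 in the WT background, and 0.321 for o2 in the PbfRNAi background and 0.413 in the WT background. For the double genotype against WT it was 0.475. Single effects and counts relative to WT below are as deposited unless scaling is named. They are to be read against those medians. Median-of-ratios scaling brought each of these medians to within 0.00276 of 0, and its factors amount to a shift of -0.147 in the departure. After that scaling 1668 genes were called (9.78%), 887 above (5.2%) and 781 below (4.58%), so the share above additivity was 53.2% rather than 41.1%. The median SE of a departure was 0.225 on the log2 scale. Single libraries moved the number below additivity, which was 619 without WT replicate 2, 618 without WT replicate 3, 1480 without o2 replicate 1, 594 without o2 replicate 2 and 597 without o2 replicate 3. The total was 1055 without o2 replicate 3, against 1590.

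**Figure D1:**
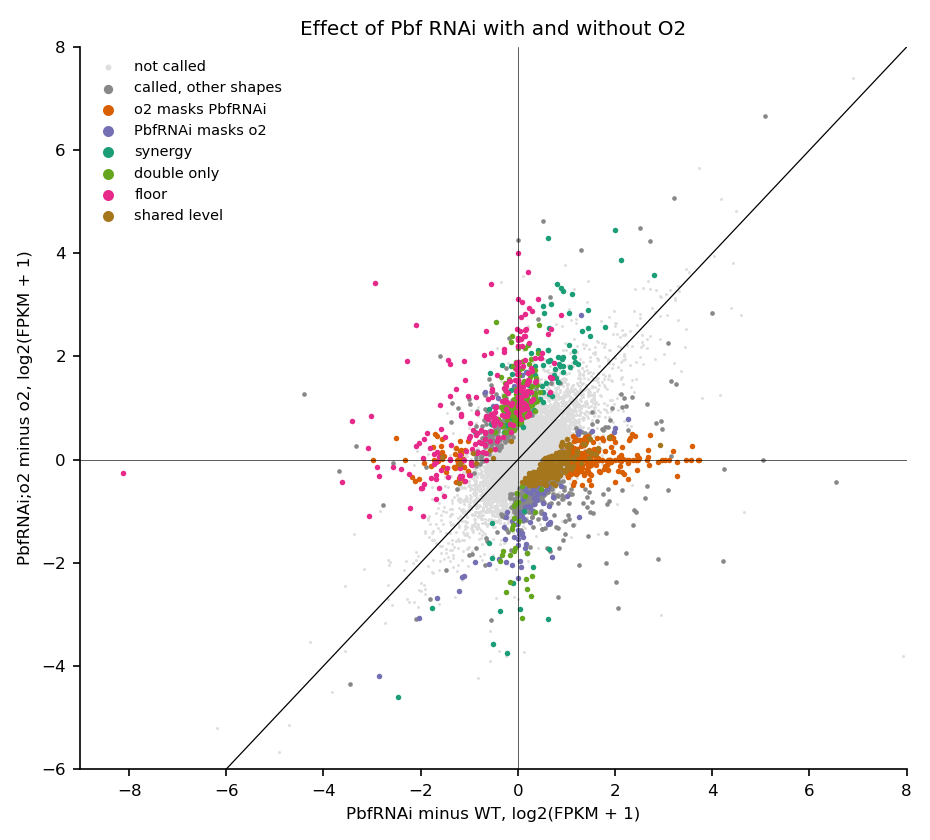
The PbfRNAi effect in the o2 background (PbfRNAi;o2 minus o2, vertical axis) is plotted against the PbfRNAi effect in the WT background (PbfRNAi minus WT, horizontal axis), each on log2(FPKM + 1) with 1 point per tested gene, and the diagonal marks equal effects. Genes where o2 masks PbfRNAi lie along the horizontal zero line, 192 to the right and 45 to the left, and the double-only genes lie along the vertical zero line. The zein models z1A1_3/z1A1_4 and gz27, which are listed at 0 in some libraries, fall outside the axes.

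Each called gene was placed in 1 shape by its fitted means, using a tolerance of 0.5 on the log2 scale for equal levels and 1 for a clear single effect. Shapes are a description and carry no test. In 267 genes the double genotype lay within 0.5 of both single genotypes, which is referred to as shared level. That rule sets no distance from WT, and the single genotypes can differ from each other by more than 0.5. In 237 genes the o2 mutation masked the PbfRNAi effect, and in 86 PbfRNAi masked the o2 effect. The double genotype changed alone in 143 genes and exceeded both single effects with synergy in 98. A further 234 departures came with an additive expectation under FPKM 1 and are referred to as floor. In 398 the departure was opposite in sign to the sum of the single effects without meeting another shape, which is referred to as less than additive. Both single effects were above 0 in 261 of these and below 0 in 53. Some members moved against both single effects, as mbd106 did, with both below 0 and the double genotype above WT. Another 81 showed a change of direction, 14 returned to WT level, 12 had no listed shape, and 20 models were listed at exactly 0 in a library and at 20 or more in another.

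**Figure D2:**
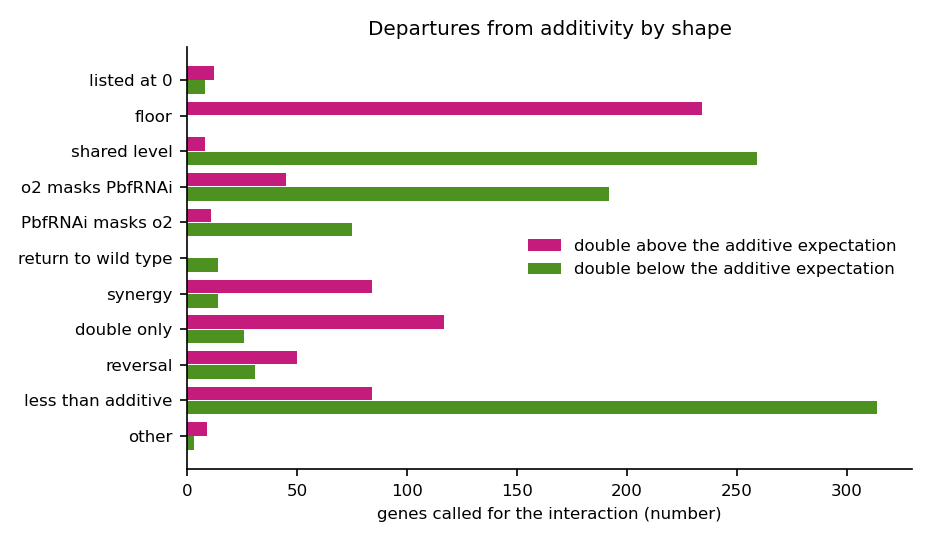
Bars give the number of called genes in each shape, with the double genotype above the additive expectation in the upper bar and below it in the lower bar. Shared level and less than additive are mostly below (259 and 314 genes), synergy and double only mostly above (84 and 117), and floor is above by construction.

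The transcripts of the 2 lesioned genes come first, since they check the labels. The PBF gene pbf1 (GRMZM2G146283) stood at FPKM 64.8, 58.8 and 54.9 in the double genotype, 242, 307 and 331 in o2, 56.7, 44.1 and 39.1 in PbfRNAi, and 110, 102 and 97.6 in WT. The o2 libraries were the highest and did not overlap the rest, and the double and PbfRNAi libraries lay below WT. PbfRNAi lowered the transcript by 2.27 ± 0.15 (SE) on the log2 scale in the o2 background and by 1.15 ± 0.15 in the WT background, a departure of -1.13 ± 0.21 (limma adjusted p = 0.00562). Its difference between the double genotype and PbfRNAi was 0.36 ± 0.15 (adjusted p = 0.0723), so by the shape rule PbfRNAi masked the 2.84-fold higher level of o2. The o2 transcript stood at 0.804, 0.312 and 0.27 in the double genotype and 0.677, 0.165 and 0.56 in o2, against 97.3, 128 and 133 in PbfRNAi and 230, 195 and 189 in WT. Both genotypes with the o2 mutation were under FPKM 1, and PbfRNAi lay below WT. The departure of 0.77 ± 0.26 missed the threshold as deposited (adjusted p = 0.0855) and passed it after scaling (adjusted p = 0.0251). The sum of the single effects lies below FPKM 0, so that such a departure has the floor shape. With a pseudocount of 0.1 the adjusted p was 0.449. Another model named pbf1, GRMZM2G146267, stood at 15.2, 15.2 and 13.2 in the double genotype, 16.7, 20.1 and 18.5 in o2, 10.5, 13.9 and 11.7 in PbfRNAi and 12.6, 12.3 and 11.5 in WT, and its departure was not called (adjusted p = 0.315).

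Most zein genes, the known targets of both factors, were not called. Of 20 alpha-zein models tested, 3 were called above additivity, where the share of all tested genes was 3.83%, and 2 below, where it was 5.49%. The other 15 were not called, and 2 of the 3 above are models listed at 0 for which no departure is given. An unadjusted limma p under 0.05 was found for 10 of the 20, models listed at 0 among them, against 4075 of all 17058. The SE was 1.24 for z1C1_7, 1.29 for z1C1_8 and 1.26 for z1C1_19, against a median of 0.225, so the lack of a call does not show additivity. The 20 had a median departure of -0.99 against -0.12 for all tested genes. Reads of near-identical copies can be shared between zein models, and the level of a single model is uncertain. With the replicate block 3 were called above and none below, and after scaling 3 above and 1 below. Without the replicate 1 libraries the departures of z1A1_2 (0.82), z1A1_5 (0.63) and z1A1_7 (1.02) were positive, although negative with all libraries. Those of z1C1_7 (-0.91), z1C1_8 (-1.255), z1C1_19 (-2.35) and z1A1_8 (-1.13) stayed negative. All of these models, of either sign, were called without the replicate 1 libraries (limma adjusted p up to 0.0291), as were 7621 of all tested genes. The median therefore does not describe every model of the list.

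Among the 22-kDa alpha zeins, z1C1_12 stood at 1.19, 1.13 and 0.794 in the double genotype, 1.16, 0.873 and 2.54 in o2, 5.7, 5.39 and 5.34 in PbfRNAi, and 1075, 2644 and 2062 in WT. Every library with a lesion lay far below every WT library, and the double genotype overlapped o2. The departure of 7.86 ± 0.42 (adjusted p = 3.94e-07) is a floor, since the sum of the single effects lies below FPKM 0. The models z1C1_11 and z1C1_1 are listed at 0 in some libraries. Of these, z1C1_11 stood at 0, 0.0433 and 0 in the double genotype, 0, 0 and 0.181 in o2, 8.84, 13.3 and 16.8 in PbfRNAi and 61.2, 93 and 87.3 in WT. The values of z1C1_1 were 0, 0.0545 and 0 in the double genotype, 0.142, 0.0679 and 0.172 in o2, 16.4, 20.1 and 28.7 in PbfRNAi and 98.7, 76.1 and 70.4 in WT. In both, PbfRNAi libraries lay between WT and the genotypes with the o2 mutation.

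The models z1C1_4 and z1C1_2 behaved otherwise. The level of z1C1_4 was 0.808, 10.8 and 4.33 in the double genotype, 138, 53.5 and 34.9 in o2, 2006, 2099 and 2125 in PbfRNAi, and 1579, 3205 and 2773 in WT. PbfRNAi libraries lay inside the WT range, whereas the double libraries lay below every o2 library. The PbfRNAi effect was -3.74 ± 0.63 in the o2 background (adjusted p = 0.00152) and -0.22 ± 0.63 in the WT background (adjusted p = 0.846), a departure of -3.53 ± 0.89 (adjusted p = 0.0314). For z1C1_2 the libraries gave 0.953, 7.37 and 3.49 in the double genotype, 96.2, 22.8 and 51.6 in o2, 1654, 1809 and 1669 in PbfRNAi and 1493, 3180 and 3022 in WT, with a departure of -3.06 ± 0.80 (adjusted p = 0.0357). Both calls ended with the replicate block (adjusted p = 0.0558 for z1C1_4 and 0.0692 for z1C1_2), and each ended on leaving out 1 of 8 libraries. That of z1C1_2 also ended after scaling (adjusted p = 0.0509) and without the replicate 1 libraries (0.0537), and that of z1C1_4 with a pseudocount of 0.1 (0.0527). For z1C1_4 these were all PbfRNAi and WT libraries, double replicate 3 and o2 replicate 2 (adjusted p up to 0.0721), and for z1C1_2 all PbfRNAi and WT libraries, double replicate 3 and o2 replicate 3 (up to 0.0824). On linear FPKM the double genotype exceeded the sum of the single effects, by 372 for z1C1_4 and 801 for z1C1_2, and the direction of these departures therefore holds for ratios only. The abundant z1C1_8 had the same order, with 10.1, 160 and 150 in the double genotype, 2425, 623 and 597 in o2, 7711, 10821 and 9928 in PbfRNAi, and 9362, 18327 and 15745 in WT, but its departure was not called (adjusted p = 0.144).

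The 50-kDa gamma zein gz50 had a synergy of the same sign on the log and linear scales. It stood at 185, 273 and 232 in the double genotype, 5258, 5820 and 5635 in o2, 514, 2046 and 1311 in PbfRNAi, and 5406, 7351 and 5825 in WT. The o2 libraries overlapped WT, the PbfRNAi libraries lay below both, and the double libraries lay below every other library. PbfRNAi lowered it by 4.61 ± 0.38 in the o2 background and by 2.46 ± 0.38 in the WT background, and the o2 effect on its own was -0.14 ± 0.38 (adjusted p = 0.774). The departure was -2.15 ± 0.54 (adjusted p = 0.0277, and 0.00646 with the replicate block), and on linear FPKM the double genotype was also lower than the sum, by 437. Its call ended on leaving out PbfRNAi replicate 3, double replicate 3, WT replicate 1 or 3, or o2 replicate 2 or 3, with adjusted p up to 0.0691. The other 4 zeins of its list were not called. The 16-kDa gamma zein gz16 stood at 28371, 23071 and 21222 in the double genotype, 32821, 23760 and 24125 in o2, 16385, 24930 and 21073 in PbfRNAi and 27463, 23231 and 22151 in WT, all 4 genotypes overlapping, with a departure of 0.09 ± 0.32 (adjusted p = 0.894). The 15-kDa beta zein bz15 had a departure of 0.61 ± 0.47 (adjusted p = 0.482). The 27-kDa gamma zein gz27 is listed at 0 in all WT libraries and in o2 replicate 1, so no departure is given for it.

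**Figure D3:**
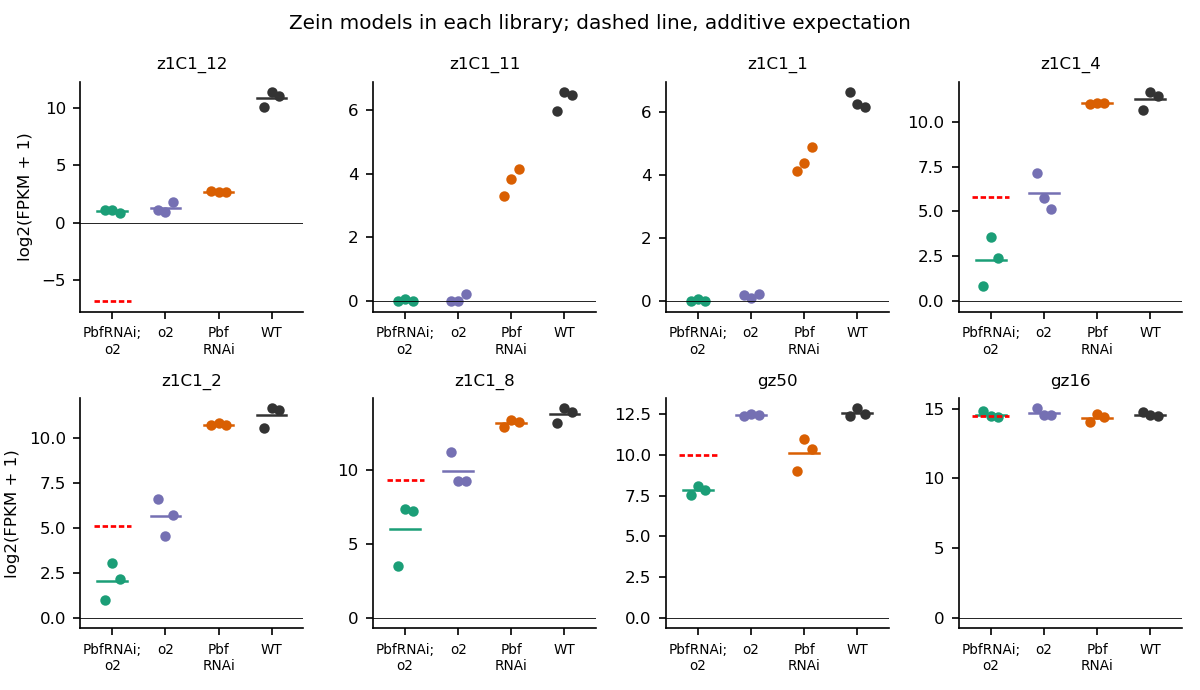
Points are single libraries on log2(FPKM + 1), short lines genotype means, and the dashed red line the level that the sum of the single effects gives for PbfRNAi;o2. No means are drawn for z1C1_11 and z1C1_1, which are listed at 0 in some libraries. For z1C1_12 the expectation lies below FPKM 0, for gz50 the 3 double libraries lie under the expectation, and for gz16 they lie on it.

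Masking of PbfRNAi by o2 held 237 genes. The level was higher in PbfRNAi than in WT in 192 of them, with effects of 1.0 to 3.73 and a median of 1.45 on the log2 scale, and lower in 45. The filter favours the first direction, since 70 of the 237, all higher in PbfRNAi, reached FPKM 1 in the 3 libraries of 1 genotype alone. The other 167 divide into 122 higher and 45 lower. The order of the steps favours it too, since floor is taken first and only for departures above 0. With the floor step left out, 31 floor genes would have this shape, and the rule makes each of them lower in PbfRNAi. The division into higher and lower is therefore partly set by the filter and the rule. With a filter at FPKM 5 the shape held 133 genes. In 163 of them o2 lay within 0.5 of WT, so that PbfRNAi alone stood apart, and in 77 the other 3 genotypes averaged under FPKM 1. All 237 were called in PbfRNAi against WT, as were 23.3% of all tested genes, which the shape rule nearly fixes. The PbfRNAi effect in the o2 background was called in 14 of the 237, against 22.2% of all tested genes, and the rule on equal levels keeps that number low. Its 95% interval lay within 1 of 0 in 231.

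Among those that passed through PbfRNAi alone, pep4, which encodes a phosphoenolpyruvate carboxylase, stood at 0.934, 0.689 and 0.887 in the double genotype, 0.479, 0.748 and 0.705 in o2, 11.9, 14.1 and 14.1 in PbfRNAi and 0.443, 0.652 and 0.612 in WT. Only the PbfRNAi libraries exceeded FPKM 1. The PbfRNAi effect was 0.16 ± 0.12 in the o2 background and 3.19 ± 0.12 in the WT background, a departure of -3.03 ± 0.18 (adjusted p = 4.85e-07). The model ris2 had the same pattern, with 16, 10.1 and 10.9 in PbfRNAi and values of 0 to 0.0479 in the other 9 libraries.

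GFT1 stood at 9.86, 10.2 and 11.4 in the double genotype, 12.5, 12.7 and 13.9 in o2, 25.7, 28.5 and 29.2 in PbfRNAi and 10.1, 12.5 and 12.1 in WT. Its PbfRNAi libraries were above all others, with a mean 2.41 times that of WT, while the double and WT libraries overlapped. The departure was -1.49 ± 0.16 (adjusted p = 7.2e-05). TIFY30, of the TIFY family that holds the JAZ repressors of jasmonate signalling, had 13.4, 15.4 and 13.9 in the double genotype, 14, 14.2 and 15.6 in o2, 25.7, 28 and 32.7 in PbfRNAi and 9.46, 10.5 and 10.3 in WT. Here o2 also lay above WT, and the o2 mutation raised the gene in the WT background by 0.49 ± 0.11 (adjusted p = 0.00379) and lowered it by 0.96 ± 0.11 in the PbfRNAi background (adjusted p = 5.1e-05). After scaling the effect in the WT background was -0.00742 (adjusted p = 0.984) and that in the PbfRNAi background -1.33 (adjusted p = 1.08e-05).

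The cystatin cc10, an inhibitor of cysteine proteinases, was the abundant member. It stood at 266, 216 and 187 in the double genotype, 392, 285 and 234 in o2, 94.7, 84.4 and 125 in PbfRNAi and 48.1, 19.2 and 15.3 in WT. The double libraries overlapped o2, both lay above PbfRNAi, and PbfRNAi lay above WT. PbfRNAi raised it by 2.0 ± 0.36 in the WT background (adjusted p = 0.00199), whereas the effect in the o2 background was -0.43 ± 0.36 (adjusted p = 0.44), a departure of -2.43 ± 0.50 (adjusted p = 0.011).

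Genes of this shape that were lower in PbfRNAi than in WT numbered 45. CAF1 stood at 14.9, 13.7 and 12.9 in the double genotype, 16.4, 19 and 19.2 in o2, 1.83, 2.51 and 1.85 in PbfRNAi and 10.9, 11.7 and 11.7 in WT. The PbfRNAi libraries averaged 0.181 of WT, the double libraries lay above WT and the o2 libraries above both, with an o2 effect in the WT background of 0.63 ± 0.12 (adjusted p = 0.00126). Its departure was 1.66 ± 0.17 (adjusted p = 4.83e-05). Hsf01, a heat shock transcription factor gene, had 23, 21.7 and 21.3 in the double genotype, 15.8, 17.2 and 17.9 in o2, 6.02, 6.58 and 6.98 in PbfRNAi and 17.4, 14.5 and 16.4 in WT. The double libraries lay above the other 9. PbfRNAi raised it by 0.36 ± 0.10 in the o2 background (adjusted p = 0.0277) and lowered it by 1.18 ± 0.10 in the WT background (adjusted p = 6.29e-06), and the departure was 1.54 ± 0.15 (adjusted p = 3.54e-05).

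Members of this shape often had called genes as neighbours. In the order of the reference annotation, 171 of the 237 could be placed, and 83% of them had another called gene among the 5 tested models on either side, against 69.8% of all called and 53.4% of all tested genes. For 45.6% a neighbour had the same shape, which held for 10.6% of all tested genes. In 1 window of 30 tested models 7 genes had this shape, and all 7 were higher in PbfRNAi, by 1.31 to 2.16. Another window with 7 held GFT1. The 2 models named PDIL1-4, after a protein disulfide isomerase of the endoplasmic reticulum, lay with the sterol synthesis gene DWF1 in a window with 13 called genes. Of that pair, GRMZM2G033829 stood at 9.65, 5.58 and 5.78 in the double genotype, 5.19, 4.98 and 5.47 in o2, 0.717, 0.649 and 0.487 in PbfRNAi and 6.82, 4.96 and 5.23 in WT, with a departure of 2.37 ± 0.25 (adjusted p = 8.25e-05). GRMZM2G034143 stood at 28.6, 22.7 and 23.5 in the double genotype, 20.8, 22.1 and 23.2 in o2, 7.36, 8.52 and 7.28 in PbfRNAi and 16.3, 13.7 and 13.8 in WT, with a departure of 1.0 ± 0.17 (adjusted p = 0.00248). In both, the PbfRNAi libraries were the lowest. For GRMZM2G034143 the WT libraries also lay below every o2 and double library, with an o2 effect in the WT background of 0.56 ± 0.12 (adjusted p = 0.00252). The PbfRNAi effect on GRMZM2G033829 was 0.33 in the o2 background and -2.04 in the WT background, which meets the limits of masking by o2. It is counted as a floor because that step comes first. GRMZM2G034143 is counted as a change of direction, and its PbfRNAi effect in the WT background, -0.84, was under 1 in size. The relation of gene position to the crosses that made these lines was not tested.

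**Figure D4:**
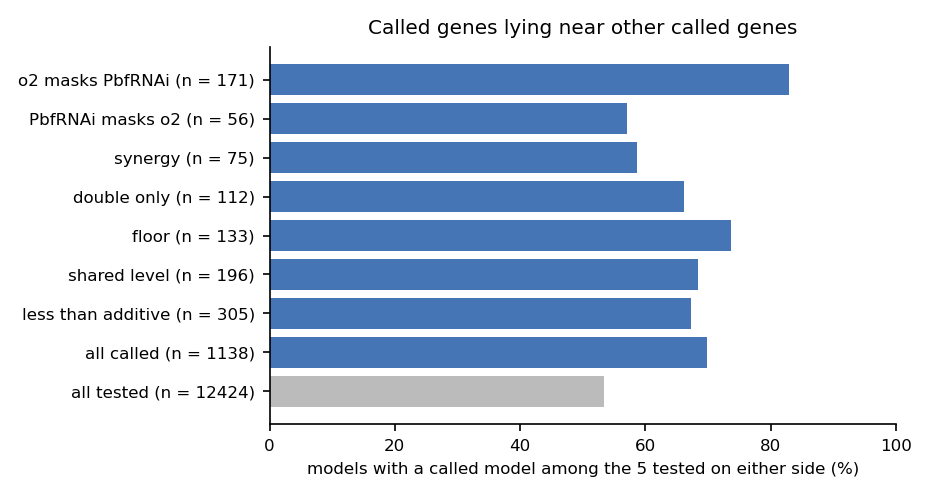
Bars give the percentage of placed models with a called model among the 5 tested models on either side, by shape, with the number placed in brackets. Genes where o2 masks PbfRNAi reach 83%, and the grey bar for all tested models 53.4%.

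The opposite masking, of o2 by PbfRNAi, held 86 genes, 75 of them higher in o2 than in WT by 1.0 to 2.75 on the log2 scale, including all 16 that passed the filter through 1 genotype alone. With the floor step left out, 8 floor genes would also have this shape, and the rule makes each of them lower in o2. In 53 of the 86 PbfRNAi lay within 0.5 of WT. All 86 were called in o2 against WT, as were 51.2% of all tested genes. The o2 effect in the PbfRNAi background was called in 5 of them, against 44.9%, both largely fixed by the rule. The 95% interval of the o2 effect in the PbfRNAi background lay within 1 of 0 in 83. TA1 stood at 909, 557 and 597 in the double genotype, 1217, 1837 and 1784 in o2, 873, 577 and 662 in PbfRNAi and 535, 407 and 418 in WT. The o2 libraries stood above all others, and the double and PbfRNAi libraries overlapped. PbfRNAi lowered it by 1.24 ± 0.23 in the o2 background (adjusted p = 0.00209), and its effect in the WT background was 0.62 ± 0.23 (adjusted p = 0.0712), a departure of -1.86 ± 0.33 (adjusted p = 0.00334). The acidic ribosomal protein gene rpp2a-4 had 174, 167 and 187 in the double genotype, 245, 259 and 286 in o2, 164, 124 and 153 in PbfRNAi and 126, 112 and 116 in WT, with a departure of -0.89 ± 0.17 (adjusted p = 0.00611).

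Yucca6, of the flavin monooxygenase family that makes auxin, was masked in the other direction. It stood at 9.05, 17.1 and 17.4 in the double genotype, 5.83, 4.88 and 5.86 in o2, 12.9, 11.4 and 15 in PbfRNAi and 19.1, 15.7 and 18.2 in WT. The o2 libraries were the lowest, 2 of the double libraries lay within the WT range, and the double replicate 1 lay below every PbfRNAi and WT library. The o2 effect was 0.09 ± 0.21 in the PbfRNAi background (adjusted p = 0.741) and -1.51 ± 0.21 in the WT background (adjusted p = 0.000216), with a departure of 1.61 ± 0.29 (adjusted p = 0.00408).

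Synergy and double-only change together held 241 genes, and in 201 of them the double genotype was higher. That division is as deposited, where the median of all tested genes in the double genotype against WT was 0.475. Either scaling left 64 genes with synergy, against 98, and the division by direction was not repeated there. The 3 double libraries lay outside the range of the other 9 in 240 of the 241, which the shape rule largely fixes. The lipoxygenase gene lox12 stood at 13.8, 14.9 and 14.5 in the double genotype, 1.83, 1.28 and 1.45 in o2, 1.84, 3.04 and 3.73 in PbfRNAi and 1.24, 2.07 and 2.23 in WT. The single genotypes overlapped WT, and the double mean was 7.82 times that of WT. PbfRNAi raised it by 2.62 ± 0.19 in the o2 background (adjusted p = 1.16e-06), and the effect in the WT background was 0.43 ± 0.19 (adjusted p = 0.131). The departure was 2.19 ± 0.27 (adjusted p = 0.000265). The acyltransferase gene pls1 had 66.8, 74.3 and 79.1 in the double genotype, 29.2, 24.6 and 22.4 in o2, 31, 20.1 and 21.7 in PbfRNAi and 22.3, 19.8 and 20.6 in WT, with a departure of 1.31 ± 0.22 (adjusted p = 0.00233). The thioredoxin h gene trh1 had 87.3, 116 and 125 in the double genotype, 47.3, 49.6 and 49.3 in o2, 37.5, 35.5 and 49.2 in PbfRNAi and 33.1, 37.4 and 41.6 in WT, with a departure of 1.02 ± 0.22 (adjusted p = 0.0118). In both genes the double libraries stood clear of the other 9.

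In the synergy shape, unlike double only, at least 1 single effect was 0.5 or more in size on the log2 scale. The double effect exceeded both single effects by 0.5 or more. The phenylalanine ammonia-lyase gene pal3, at the entry to phenylpropanoid synthesis, stood at 30.2, 31.4 and 34.3 in the double genotype, 6.74, 5.81 and 5.75 in o2, 11.6, 12.8 and 15.7 in PbfRNAi and 5.19, 6.18 and 6.22 in WT. PbfRNAi raised it by 2.21 ± 0.13 in the o2 background and by 1.06 ± 0.13 in the WT background, and the o2 effect on its own was 0.05 ± 0.13 (adjusted p = 0.765). The departure was 1.16 ± 0.18 (adjusted p = 0.00133). The antifungal basal-layer gene bap-1a had 5.95, 16.6 and 14.6 in the double genotype, 1.69, 3.12 and 2.85 in o2, 0.663, 0.451 and 0.623 in PbfRNAi and 0.781, 1.35 and 0.819 in WT, with a departure of 2.15 ± 0.42 (adjusted p = 0.00658). The summed basal transfer layer markers, at 99.2 to 301 in the double genotype and 311 to 573 in o2, ran the other way between those genotypes, and their part in the departure was not tested.

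Downward synergy was rarer, at 14 genes, with 26 more that were lower in the double genotype alone. The pyruvate phosphate dikinase gene pdk1, whose product interconverts pyruvate and phosphoenolpyruvate, stood at 121, 97.6 and 100.2 in the double genotype, 238, 201 and 199 in o2, 706, 500.2 and 502 in PbfRNAi and 636, 469 and 464 in WT. The PbfRNAi libraries overlapped WT, o2 lay below both, and the double libraries were the lowest. PbfRNAi lowered it by 0.99 ± 0.17 in the o2 background (adjusted p = 0.00127), and its effect in the WT background was 0.12 ± 0.17 (adjusted p = 0.673), a departure of -1.11 ± 0.24 (adjusted p = 0.0125). AMA1 had 3.59, 3.55 and 3.08 in the double genotype, 16.1, 15 and 13.9 in o2, 14.2, 17.2 and 14.9 in PbfRNAi and 16.6, 20.9 and 21.2 in WT. The o2 effect on its own was -0.36 ± 0.12 (adjusted p = 0.0298) and the PbfRNAi effect -0.32 ± 0.12 (adjusted p = 0.0813), while the double mean was 0.174 of WT, with a departure of -1.54 ± 0.18 (adjusted p = 0.000134).

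**Figure D5:**
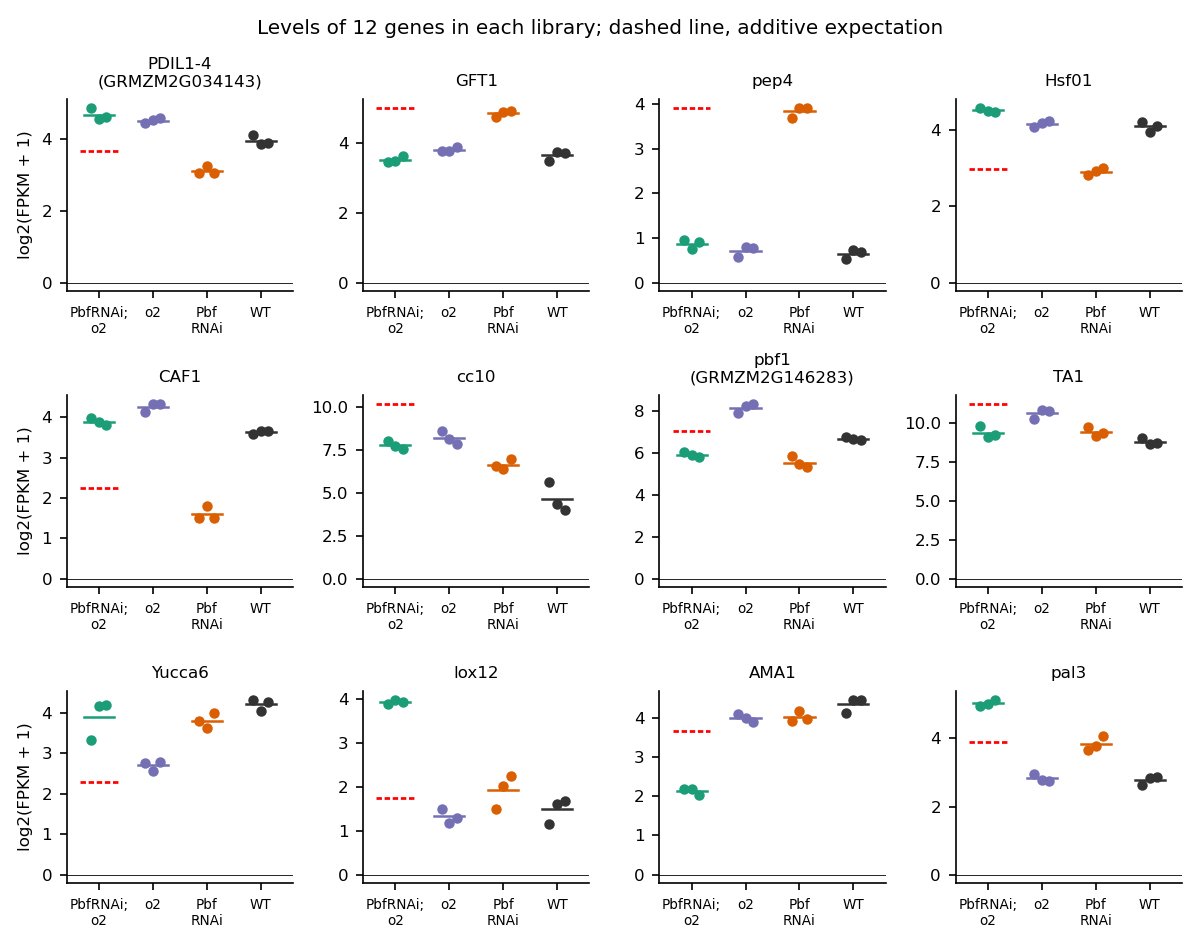
Points are single libraries on log2(FPKM + 1), short lines genotype means, and the dashed red line the level that the sum of the single effects gives for PbfRNAi;o2. In pep4 and GFT1 PbfRNAi lies above the other genotypes, in Hsf01 and CAF1 it lies below them while they also differ among themselves, in pbf1 and TA1 o2 stands above the rest, and in lox12 and AMA1 PbfRNAi;o2 alone stands apart.

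A shared level was, after less than additive, the most frequent shape, with 267 genes, 259 of them below additivity, and its departures were small, at a median size of 0.771. All 3 non-WT genotypes lay 0.5 or more above WT in 112 of them and that far below it in 4, but after either scaling the numbers were 21 and 7. The number depended on single libraries, from 108 without o2 replicate 2 to 553 without o2 replicate 1, and 190 of the 267 were still called after scaling. One member, nfa101, stood at 34.6, 25.5 and 28.1 in the double genotype, 26.3, 30.3 and 29.9 in o2, 35.4, 29.8 and 28.2 in PbfRNAi and 16.7, 13.4 and 13.9 in WT. The 3 non-WT genotypes overlapped and all lay above WT, with a departure of -1.01 ± 0.20 (adjusted p = 0.00608).

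Several abundant genes rose in both single genotypes and less than additively in the double one. The legumin gene leg1, for an 11S-type storage globulin, stood at 6102, 5169 and 4951 in the double genotype, 6067, 5802 and 5581 in o2, 3926, 3235 and 2981 in PbfRNAi and 1889, 1843 and 1751 in WT. The double and o2 libraries overlapped, PbfRNAi lay below them and WT was the lowest. PbfRNAi raised it by 0.88 ± 0.15 in the WT background (adjusted p = 0.0013), and the effect in the o2 background was -0.11 ± 0.15 (adjusted p = 0.666), a departure of -0.99 ± 0.22 (adjusted p = 0.0122). The sorbitol dehydrogenase gene sdh1 had 5611, 4385 and 4198 in the double genotype, 6474, 6469 and 6061 in o2, 2220, 2012 and 2351 in PbfRNAi and 1787, 1157 and 1159 in WT, with a departure of -1.14 ± 0.27 (adjusted p = 0.0184). That call ended without double replicate 2 or 3, WT replicate 2 or 3, or o2 replicate 2, with adjusted p up to 0.0617.

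The BiP gene bip2, the luminal Hsp70 chaperone of the endoplasmic reticulum, stood at 73.2, 127 and 129 in the double genotype, 54.1, 30 and 29.6 in o2, 249, 122 and 131 in PbfRNAi and 16.9, 17.8 and 16.2 in WT. PbfRNAi raised it by 1.52 ± 0.31 in the o2 background (adjusted p = 0.0043) and by 3.15 ± 0.31 in the WT background (adjusted p = 2.15e-05), a departure of -1.63 ± 0.44 (adjusted p = 0.0382). That call ended with the replicate block (adjusted p = 0.051), after scaling (adjusted p = 0.0741) and on leaving out any library other than PbfRNAi replicate 2 or 3 (adjusted p up to 0.0905). The disulfide isomerase gene PDIL1-1 had 1019, 1320 and 1431 in the double genotype, 755, 883 and 926 in o2, 1388, 884 and 1099 in PbfRNAi and 478, 339 and 340.1 in WT, with a departure of -0.99 ± 0.28 (adjusted p = 0.0491, and 0.0775 after scaling). Its call ended without PbfRNAi replicate 1 or 3, any double library, WT replicate 2 or 3, or o2 replicate 2 or 3 (adjusted p up to 0.128).

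A starch branching enzyme gene, sbe1 (GRMZM2G088753), stood at 126, 205 and 211 in the double genotype, 176, 328 and 323 in o2, 193, 308 and 293 in PbfRNAi and 107, 151 and 148 in WT. Within each replicate number the double genotype lay below both single ones and above WT. The departure was -1.54 ± 0.40 (adjusted p = 0.0323, and 6.85e-05 with the replicate block). The call ended after scaling (adjusted p = 0.0592) and on leaving out PbfRNAi replicate 2 or 3, o2 replicate 2 or 3, or any WT library (adjusted p up to 0.0871).

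In 14 genes both single lesions had an effect of 1 or more and the double genotype lay within 0.5 of WT, and in 13 of them both lesions raised the level. TCP7, a TCP transcription factor gene, stood at 5.08, 2.83 and 2.35 in the double genotype, 11.7, 8.57 and 7.8 in o2, 17.4, 16.9 and 19.1 in PbfRNAi and 4.4, 2.06 and 1.91 in WT. The double libraries overlapped WT and both single genotypes lay above them. PbfRNAi lowered it by 1.26 ± 0.26 in the o2 background (adjusted p = 0.0041) and raised it by 2.37 ± 0.26 in the WT background (adjusted p = 3.73e-05), a departure of -3.63 ± 0.37 (adjusted p = 5.54e-05). The kinase gene WNK6 had 3.87, 4.07 and 4.14 in the double genotype, 6.76, 7.02 and 7.13 in o2, 9.35, 12.7 and 11.7 in PbfRNAi and 5.57, 4.6 and 3.9 in WT, with a departure of -1.77 ± 0.19 (adjusted p = 8.61e-05). It is counted as less than additive, since its o2 effect was under 1.

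The floor shape held mostly genes of low level, with 14 of 234 at a mean of FPKM 10 or more in a genotype and 105 under FPKM 1 in WT. In 45 both single genotypes lay 0.5 or more below WT. In 138 the double genotype lay 0.5 or more above WT as deposited, where the median of all tested genes was 0.475. With the floor step left out, 88 of the 234 would be double only, 41 less than additive, 31 masked by o2 and 18 synergy. This division was made after the values were seen. The late embryogenesis gene Lea14A is an example, with 2.06, 2.83 and 2.45 in the double genotype, 0.932, 1.03 and 0.646 in o2, 0.559, 0.791 and 0.403 in PbfRNAi and 1.43, 0.957 and 1.5 in WT, and a departure of 1.42 ± 0.21 (adjusted p = 0.00111). The unnamed model GRMZM2G079127 stood at 12.3, 8.71 and 8.69 in the double genotype and 6.68, 6.97 and 6.4 in WT, and it is listed at 0 in all o2 and all PbfRNAi libraries. Of the tested genes, 276 passed the filter through the 3 libraries of 1 genotype alone, and 192 of those were called, against 9.32% of all tested genes. The filter admits such models only where 1 genotype is high, which largely fixes the call, so that number is no result about them. They are included in the 1590 called genes and were not left out of the neighbour shares.

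Counts over gene lists were small. Members called above and below additivity were 2 and 2 of 18 for chaperones of the endoplasmic reticulum, 0 and 2 of 29 for ribosomal proteins (rps24 and arpp2a), 0 and 1 of 21 for starch and sucrose genes, 1 and 2 of 15 for central carbon genes, and 0 and 1 of 17 for defence genes. The counts were 0 and 1 of 9 for endosperm transcription factors (pbf1), 0 and 1 of 5 for zeins outside the alpha class (gz50), 0 and 1 of 2 for other reserve proteins (leg1) and 1 and 0 of 3 for late embryogenesis genes. The starchy endosperm markers, which repeat the zein lists, had 3 and 3 of 27. No member was called by limma among heat shock, translation elongation, aspartate family, protein body, aleurone, basal transfer layer, embryo and embryo surrounding region genes, 41 in all, of which 6 had an unadjusted p under 0.05. Green tissue and pericarp markers had no tested member. The called share of all tested genes, 9.32%, is the figure to set these counts against. The medians of the larger lists were -0.24 for chaperones, -0.25 for ribosomal proteins and -0.29 for starch and sucrose genes, against -0.12 for all tested genes.

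The ribosomal list shows what its few calls leave out. Of its 29 members, as deposited, PbfRNAi raised 7 in the o2 background, where 14.4% of all tested genes were called higher, and 20 in the WT background, where the share was 18.2%. After either scaling the list counts were 3, where 12.4% of all tested genes were called higher, and 11, where the share was 11.5%. None was lowered in either background as deposited or after either scaling, where 7.84% of all tested genes were called lower in the o2 background and 5.16% in the WT background as deposited, and 10.5% and 9.57% after scaling. Those counts are of genes past a threshold in each background, and the difference itself was called for 2 members. The list was matched by symbol and leaves out the acidic ribosomal protein gene rpp2a-4. Its departure of -0.89 was called as deposited (limma adjusted p = 0.00611) and after scaling (0.00782). PbfRNAi lowered rpp2a-4 by 0.58 ± 0.12 in the o2 background (adjusted p = 0.00447). The 40S gene rps24 stood at 92.4, 107 and 112 in the double genotype, 77.7, 80.7 and 82.1 in o2, 83.4, 52 and 63.5 in PbfRNAi and 32, 26.9 and 27.6 in WT, with a departure of -0.78 ± 0.22 (adjusted p = 0.0409, and 0.0814 after scaling). The acidic gene arpp2a had 52.3, 45.2 and 48.1 in the double genotype, 45.2, 47.4 and 50.3 in o2, 36.9, 24.1 and 36.8 in PbfRNAi and 15.6, 16 and 17.6 in WT, with a departure of -0.90 ± 0.21 (adjusted p = 0.0183). The call of rps24 ended without PbfRNAi replicate 1 or 3, any double library, WT replicate 2 or 3, or o2 replicate 2 or 3 (adjusted p up to 0.106), and that of arpp2a without double replicate 2 or o2 replicate 3 (up to 0.0534).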

How the data were processed

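RNA of endosperm at 16 days after pollination was sequenced in 12 libraries, with ribosomal RNA removed and paired reads of 125 nt, per the labels' protocols. The submitters' processing notes name FastQC, TopHat, Bowtie2, Cufflinks and the build B73 RefGen_v3. The sources used here give neither versions nor annotation. The authors deposited FPKM values for 39448 models. Depth is unknown and no counting interval is given.

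A model of 4 genotype means was fitted to log2(FPKM + 1) of 17058 models in all 12 libraries with limma 3.58.1 in R 4.3.3, with moderation, a variance trend and robust estimation. The pseudocount of 1 shrinks the change of low genes. Tests were two-sided, with Benjamini-Hochberg adjustment over all tested models within each contrast and a threshold of 0.05. On simulated data of 17058 genes with 100 planted departures of each size, 52 of size 1 and 88 of size 2 (log2) were called in the interaction, with 7 false calls. Departures were planted only in genes with a mean log2(FPKM + 1) above 2, and noise was drawn independently for each library. The figures therefore do not cover departures of lower genes or libraries that deviate together. Models with an exact 0 and a value of 20 or more (35 models) get library values only.

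Shapes were assigned in the order listed at 0, floor (departure above 0 and additive expectation under FPKM 1), shared level, masking by o2, masking by PbfRNAi, return to WT, synergy or double only, reversal, less than additive, other. Names came from a RefSeq table of another assembly (NAM-5.0), which matched 18905 models and named 2477. Only its gene order was used for neighbours, and 12424 tested models could be placed. Named genes were the regulators and zeins, the 15 largest departures each way and up to 8 per shape among called genes with a name and a mean FPKM of 10 or more, abundant members of each list, and up to 3 unnamed models each way. The text names fewer. Members, lists and shapes were chosen with earlier results of these data known, and 10 list matches of a wrong gene were left out after the values were seen.

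Libraries of different genotypes that share a replicate number deviated together, but so did replicates 2 and 3. Over genes, deviations from genotype means correlated at 0.18 to 0.501 in 18 pairs of libraries with the same number. In 36 pairs with different numbers they ran from -0.425 to 0.313. Of these, pairs with a replicate 1 lay at -0.425 to -0.177, and pairs of a replicate 2 with a replicate 3 at 0.137 to 0.313. The correlations therefore set replicate 1 apart more than they pair replicates 2 and 3 by number. The numbers come from the sample titles. Alternatives were the replicate block, other pseudocounts, filters, scalings and tolerances, a square root scale, and leaving out libraries. A block with scaling, and the division of the floor shape, were added after seeing the data. Promoter motifs were not analysed here.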

Additional observations from a re-analysis of the deposited data

Results flagged for a closer look

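Several genes were singled out because an effect was called with opposite signs in the 2 backgrounds and the difference itself was called. The PbfRNAi effect was of opposite sign in the o2 and WT backgrounds for 143 genes, 58 of them higher and 85 lower in the o2 background. The o2 effect was of opposite sign in the PbfRNAi and WT backgrounds for 242 genes, 60 of them higher and 182 lower in the PbfRNAi background. After median-of-ratios scaling the signs were still opposite for 143 and 216 of these genes, and both effects were still called for 110 and 75.

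Among named genes the PbfRNAi effect turned for Hsf01 (departure 1.54, limma adjusted p = 3.54e-05), TCP7 (-3.63, adjusted p = 5.54e-05), WNK6 (-1.77, adjusted p = 8.61e-05) and crd101 (-1.59, adjusted p = 6.16e-05). The o2 effect turned for TCP7, WNK6 and crd101 as well, and for ALDH10A5 (-1.41, adjusted p = 0.000151), TIFY30 (-1.45, adjusted p = 9.25e-05), mbd106 (1.44, adjusted p = 8.08e-05), sdx1 (-1.16, adjusted p = 0.0011) and sfp5 (2.49, adjusted p = 0.000613). The level of sfp5 was 28, 31.4 and 31.9 in the double genotype, 2.75, 2.46 and 2.35 in o2, 9.59, 16 and 16.4 in PbfRNAi and 13.1, 6.34 and 6.57 in WT. The methyl-CpG-binding domain gene mbd106 stood at 31.3, 35.8 and 37 in the double genotype, 15.2, 14.5 and 14.1 in o2, 18.6, 16 and 17.5 in PbfRNAi and 18.7, 21.5 and 22.3 in WT. For crd101 the libraries gave 7.87, 8.13 and 7.27 in the double genotype, 12, 14.2 and 12.9 in o2, 13.9, 12.8 and 11.3 in PbfRNAi and 7, 5.96 and 5.81 in WT. After scaling the o2 effects of TIFY30 and sdx1 no longer had opposite signs, with -1.33 and -1.18 in the PbfRNAi background and -0.00742 (limma adjusted p = 0.984) and -0.143 (adjusted p = 0.381) in the WT background. That of WNK6 was -1.6 in the PbfRNAi background and 0.0397 (adjusted p = 0.885) in the WT background, and the other named effects kept their calls and opposite signs. No cause was tested for any of them.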

How the results depend on the processing

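The number of genes called above and below additivity was 387 and 561 with a filter at FPKM 5, 991 and 1522 with the replicate block, 1521 above with the block and scaling together, and 1811 and 5810 without the 4 replicate 1 libraries. Leaving out 1 library gave 458 to 791 above and 594 to 1480 below. Under the filter 2345 genes were called for PbfRNAi;o2 against o2 (3793 as deposited), and 8444 without the replicate 1 libraries, where PbfRNAi against WT had 8343 (3978 as deposited). Median-of-ratios scaling, over all genes or outside the 100 most abundant, gave 4733 and 4729 for PbfRNAi;o2 against PbfRNAi (7657), 2865 and 2867 for o2 against WT (8730, and 4566 with block and scaling), and 6131 in both for PbfRNAi;o2 against WT (10259). Leaving out 1 library gave 2637 to 4640 for PbfRNAi against WT, the lowest without WT replicate 2.

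Floor departures numbered 32 with the filter at FPKM 5, 403 with none, 362 with block and scaling, 399 without the replicate 1 libraries, 79 with the floor at FPKM 0.1 and 408 with it at 5. Shared levels numbered 558 with a pseudocount of 5, 680 with block and scaling, 627 with the block, 3032 without the replicate 1 libraries, 89 and 685 with tolerances of 0.25 and 1, and 108 to 553 without 1 library. Masking by o2 held 133 genes with the filter, 87 with a pseudocount of 5 and 53 with a tolerance of 1, and 209 to 256 without 1 library. Masking by PbfRNAi held 56 with the filter, 55 with either scaling, 36 with a pseudocount of 5, 330 without the replicate 1 libraries, 185 and 10 with tolerances of 0.25 and 1, and 64 to 148 without 1 library. Synergy held 64 with either scaling, 52 with a pseudocount of 5, 152 with the block, 309 without the replicate 1 libraries, 239 and 17 with tolerances of 0.25 and 1, and 61 to 138 without 1 library. Double only held 228 with block and scaling, 229 with the block, 356 without the replicate 1 libraries, 69 with a tolerance of 0.25, 92 with the floor at FPKM 5, and 88 to 166 without 1 library. List members called numbered 20, 104 without the replicate 1 libraries, and 11 to 34 without 1 library, with the highest number without o2 replicate 1. The causes were not tested.

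Departures that turned were those of lkrsdh1 (0.97), z1A1_2 (0.82), z1A1_5 (0.63) and z1A1_7 (1.02), none of them called with all libraries, without the replicate 1 libraries, and z1C1_2 on the square root scale (3.24, adjusted p = 0.756). Of the 68 named genes called, the replicate block ended the call of 3 (bip2, z1C1_2 and z1C1_4), and either scaling that of 9. FPKM carries no depth, so it is not known how far counting error limits genes near FPKM 1. The planned search for promoter motifs was not run.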

Other observations

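Some models were seen at or near 0 in every library of particular genotypes. The terpene synthase gene tps10 stood at 0 in all 3 double libraries, 0.342, 0.589 and 0.605 in o2, 20.3, 13.3 and 12.1 in PbfRNAi and 1.6, 0.714 and 0.467 in WT. The unnamed model GRMZM2G013248 stood at 33.1, 30 and 36 in PbfRNAi and at 0.09 in 1 WT library, and it is listed at 0 in the other 8. GRMZM2G008972 stood at 0, 0.073 and 0.0826 in the double genotype, 3.25, 3.09 and 2.97 in o2, 17.4, 20.9 and 18.2 in PbfRNAi and 0.0395, 0.059 and 0.0736 in WT, so that both single genotypes exceeded the other pair. GRMZM2G404688 had 431, 344 and 299 in the double genotype, 578, 468 and 397 in o2, 68.6, 111 and 160 in PbfRNAi and 0.23, 0 and 0.22 in WT.

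The unnamed model GRMZM2G168829 stood at 5.05, 4.89 and 5.32 in the double genotype, 0 in all o2 libraries, 0.094, 0 and 0.0613 in PbfRNAi and 3.08, 4.1 and 3.28 in WT, a level present with both lesions or with neither. GRMZM2G021973 was present in WT at 36.1, 14.8 and 14.9 and in the double genotype at 0.569, 1.31 and 2.91, and is listed at 0 in all single-lesion libraries.

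The window of 30 tested models with the most called genes held 15, and their PbfRNAi effects ran from -1.93 to 1.92 in the o2 background and from -1.43 to 2.88 in the WT background. Among zeins the alpha-zein model z1A2_1 stood at 3788, 11813 and 10872 in the double genotype, 449.5, 217 and 220 in o2, 23510, 22673 and 22321 in PbfRNAi and 806, 1313 and 996 in WT. Its level was higher with the interference construct in either background, and its departure was not called (limma adjusted p = 0.776).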
